A study of Rattus norvegicus with 24 samples.

Results

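The effect of cigarette smoke on gene expression in silica-exposed rat lung was measured as the difference between 4 rats given smoke and silica and 4 rats given nose-only air and silica, 8 of the 24 rats with arrays. The study's text plans 102 rats in 6 groups of 17. The 8 rats were taken by the treatment codes in the sample titles, and each gave 1 Affymetrix Rat230_2 array of the right caudal lung lobe. All were male Sprague-Dawley rats, an outbred strain, listed as 17 weeks old in the labels and as 10 to 15 weeks old in the study's text. Animals of the smoke and silica group breathed cigarette smoke through the nose in 3-hour daily sessions, 5 per week, at 0.48 mg/L of wet total particulate matter, for a span the protocol puts at 5 weeks and the study's text at 6. The air and silica group had nose-only air in place of smoke. Both groups breathed silica at 1 mg per cubic metre in a whole-body chamber, 18 hours a day on 7 days a week for 2 weeks, at the end of the smoke or air period. The other 16 rats with arrays formed 4 groups of 4: smoke alone, sham air alone, smoke with Iraqi sand, and air with Iraqi sand. The rat numbers are 602, 603, 604 and 605 for smoke and silica and 501, 502, 503 and 504 for air and silica, and single values below are given in these orders.

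Inhaled smoke and mineral particles both meet the alveolar macrophage first, a resident phagocyte that takes up particles into lysosomes and that enlarges and loads with lipid and pigment in smokers' lungs. Crystalline silica damages the lysosome from inside and is known for its chronic inflammation and fibrosis. The lung also runs a circadian clock, in which CLOCK and BMAL1 drive E-box genes, the PER and CRY proteins and the BHLHE factors oppose them, and the nuclear receptors NR1D1 and NR1D2 repress Bmal1.

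Expression is given as the log2 level that RMA, a method that corrects background, equalizes arrays and summarizes probes, yields for a probe set. A gene was read from its brightest probe set with exactly 1 symbol, which gave 14217 genes. A difference is smoke and silica minus air and silica on the log2 scale, with the standard error (SE) of limma's linear model. A gene passed the test when its p, adjusted over all genes by the method of Benjamini and Hochberg, was under 0.05. Lung identity was plain in all 8 rats: the surfactant gene Sftpc lay at 14.83 to 14.89 in smoke and silica rats and 14.87 to 14.95 in air and silica rats, near the top of the scale at 15.04. In bulk lung, fewer cells of a type and less RNA per cell cannot be told apart.

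One smoke and silica rat, 604, stood apart from its group. It had 181 genes at least 2-fold above and 71 at least 2-fold below the mean of its group mates, against 13 to 33 above and 7 to 139 below for the other 7 rats, of which rat 605 had the 139. Its RNA integrity number was 8.7, the lowest of the 6 rats with one, the others lying at 9.1 to 9.3. Rat 302, an air and Iraqi sand animal, is no member of either silica group, but it widened the spread that the 6 groups share, and results are given with and without each of these rats.

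Across all genes, 1 passed the test with 24 arrays (0.00703% of the 14217), the clock repressor Nr1d1, which fell. The unadjusted p was under 0.05 in 1161 genes (8.17%), 598 of them higher (4.21%) and 563 lower (3.96%). Without rat 302, which leaves every difference between the silica groups as it is and gives a median residual SD of 0.121 against 0.153 with it, 61 genes passed (0.429%), 37 of them higher (0.26%) and 24 lower (0.169%). Without rat 604 the count was 0 by limma, and with rats 302 and 604 both left out it was 3. Leaving out rat 501 of the air and silica group gave 16, of which 15 were higher, and leaving out rat 502 or rat 503 gave 0. In 398 genes (2.8%) every smoke and silica rat lay above every air and silica rat, and in 619 (4.35%) every one lay below, 7.15% in either direction. With rat 604 left out these counts were 490 (3.45%) and 929 (6.53%). Leaving out a rat can only raise such counts, so the rise does not show cleaner groups. Of all genes, 46.7% had a difference above 0, and the median difference was -0.01. The 61 genes are called below those that passed without rat 302.

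Nr1d1, which encodes REV-ERB alpha, had log2 levels of 8.55, 8.97, 7.75 and 8.16 in smoke and silica rats, against 9.76, 10.01, 10.00 and 9.40 in air and silica rats. The highest smoke and silica rat lay below the lowest air and silica rat. The difference was -1.44 (SE 0.22), a level 0.369 times that of the air and silica rats, with an adjusted p of 0.0181, or 0.0124 without rat 302. Without rat 604 the difference was -1.23 and the adjusted p 0.1. The call was also lost without rat 502 (adjusted p = 0.151) or rat 503 (0.129). Group means of Nr1d1 were 8.36 ± 0.52 with smoke and silica and 9.80 ± 0.29 with air and silica (SD, n = 4 each), 9.23 ± 0.10 with smoke alone and 9.75 ± 0.42 with sham air alone, and 8.70 ± 0.24 with smoke and Iraqi sand and 10.11 ± 0.19 with air and Iraqi sand. Smoke without particles thus gave -0.52 (adjusted p = 0.386) and smoke under sand -1.41 (adjusted p = 0.00293). The smoke effect under silica minus that without particles was -0.92 (SE 0.30), which did not pass the test over all genes.

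Of the other repressors of the clock, Bhlhe41, which encodes DEC2 and binds E-boxes, was higher in smoke and silica rats, at 10.46, 10.38, 10.40 and 10.54, against 10.00, 9.72, 9.63 and 9.58 in air and silica rats. The groups did not overlap, and the smoke and silica rats lay within a narrow band. The difference was 0.71 (SE 0.15, adjusted p = 0.0956), and Bhlhe41 passed without rat 302 (0.0474). Cry1, a core repressor, was at 9.56, 9.50, 9.32 and 9.39 with smoke and silica, against 8.98, 8.68, 8.36 and 9.13 with air and silica. Its groups also stood apart, with a difference of 0.66 (SE 0.16, adjusted p = 0.153, or 0.0528 without rat 302). Per1, which answers the clock and glucocorticoids, went the other way, at 8.59, 8.29, 8.63 and 9.08 in smoke and silica rats and 9.45, 9.53, 8.88 and 9.37 in air and silica rats. Rats 605 and 503 overlapped, and the difference of -0.66 (SE 0.20) did not pass (adjusted p = 0.26).

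The remaining clock genes lay closer together. Per2 differed by 0.47 (adjusted p = 0.595), Per3 by -0.37 (0.639), Nr1d2 by -0.26 (0.916) and Cry2 by -0.04 (0.978). Among the activators, Npas2 differed by -0.49 (adjusted p = 0.744), Bmal1 by -0.23 (0.909) and Clock by 0.05 (0.981), and all 3 overlapped between groups. The sign for Clock and for Cry2 turned without rat 604, to -0.03 and 0.02, and Per3 and Nr1d2 were then at -0.24 and -0.15. Of the output genes, Dbp, a PAR-domain factor under E-box control, differed by -0.49 (adjusted p = 0.767), Wee1, a kinase that holds the cell cycle, by 0.31 (0.534) and Nfil3, which opposes Dbp, by 0.33 (0.549). Over the clock lists, 1 of 5 activators, 3 of 9 repressors and 3 of 7 output genes were higher in smoke and silica rats. Rat 604 was the lowest smoke and silica rat in 5 of the 9 repressors and in 6 of the 7 output genes. The labels give no time of day, so the part of sampling time in these clock values was not tested.

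The start-site windows below, from RefSeq assembly GRCr8, run from 250 bases before to 50 after the annotated start of the gene. They are shown for Nr1d1, Bhlhe41, Klf15 and Ctsd because each holds the E-box CACGTG, set in capitals, which is its own reverse complement and so was found on both strands by 1 search. For Nr1d1 this is 1 of 2 annotated windows, and the other, at chr10:84231763-84232062, holds no CACGTG.
Nr1d1, chr10:84229405-84229704, minus strand: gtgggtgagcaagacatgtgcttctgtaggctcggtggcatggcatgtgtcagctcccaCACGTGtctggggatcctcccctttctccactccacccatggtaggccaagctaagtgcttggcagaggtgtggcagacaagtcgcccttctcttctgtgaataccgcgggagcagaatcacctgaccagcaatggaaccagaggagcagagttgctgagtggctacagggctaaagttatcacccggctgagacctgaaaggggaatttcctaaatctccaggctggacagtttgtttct
Bhlhe41, chr4:180569306-180569605, minus strand: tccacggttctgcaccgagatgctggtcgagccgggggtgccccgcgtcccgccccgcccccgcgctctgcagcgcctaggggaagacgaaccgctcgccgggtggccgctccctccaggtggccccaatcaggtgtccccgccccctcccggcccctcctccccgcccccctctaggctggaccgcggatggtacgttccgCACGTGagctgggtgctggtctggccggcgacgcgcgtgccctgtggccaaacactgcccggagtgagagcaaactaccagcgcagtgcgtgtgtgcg
Klf15, chr4:124522765-124523064, plus strand: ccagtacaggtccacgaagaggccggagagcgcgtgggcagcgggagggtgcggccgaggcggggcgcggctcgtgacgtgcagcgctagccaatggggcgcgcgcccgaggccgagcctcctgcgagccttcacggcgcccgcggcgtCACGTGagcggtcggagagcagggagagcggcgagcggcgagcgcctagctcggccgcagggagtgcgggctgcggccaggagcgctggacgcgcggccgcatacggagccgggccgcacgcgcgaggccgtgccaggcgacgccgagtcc
Ctsd, chr1:206968772-206969071, minus strand: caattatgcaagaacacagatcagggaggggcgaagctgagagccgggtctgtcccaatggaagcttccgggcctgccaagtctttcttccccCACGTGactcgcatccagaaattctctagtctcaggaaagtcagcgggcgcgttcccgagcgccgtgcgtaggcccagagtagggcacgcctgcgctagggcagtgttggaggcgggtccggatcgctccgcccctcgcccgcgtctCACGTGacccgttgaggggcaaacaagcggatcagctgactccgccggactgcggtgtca

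The motif begins 191 bases before the start in Nr1d1, 48 before it in Bhlhe41, 101 before it in Klf15, and both 157 and 10 before it in Ctsd. CACGTG occurred in 6.42% of all 33469 windows in the table and in 8.62% of the 13242 windows of genes tested. Among genes that passed without rat 302, 51 of the 61 had a window, and 6 of their 53 windows (11.3%) held it, the other 2 genes being Sumo3 and Trim25. The longer TCACGTGA, which overlaps CACGTG and lies within the element bound by the lysosomal regulator TFEB, was in 0.777% of all windows, in 1.38% of those of genes tested, and in those of Klf15 and Ctsd. These are matches of letters and not measured binding.

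**Figure D1:**
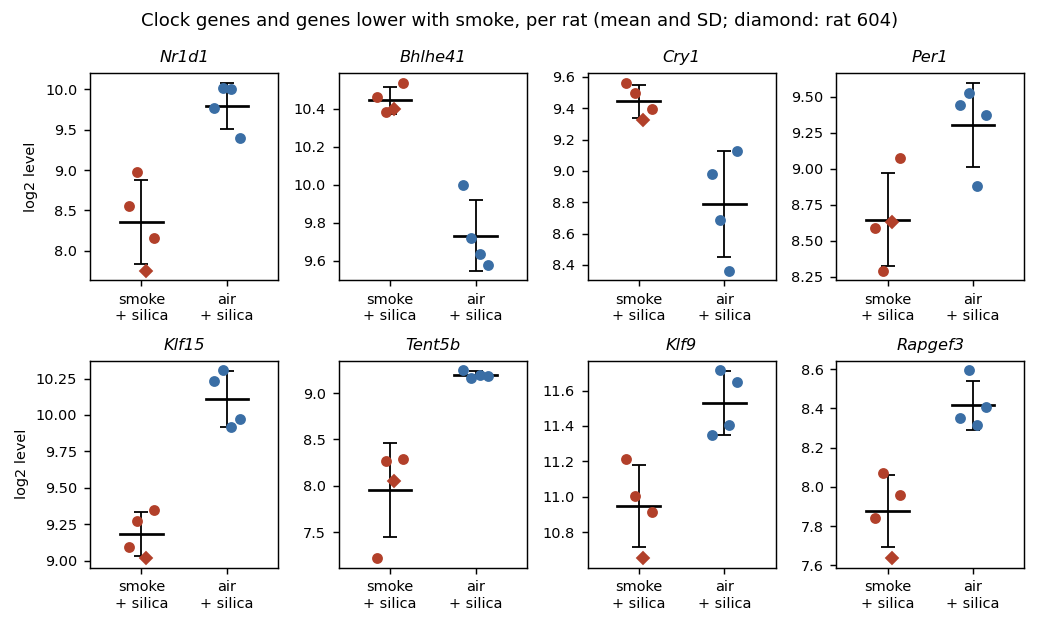
Log2 level of 4 clock genes (upper row) and 4 genes lower with smoke (lower row) in each of 4 smoke and silica rats and 4 air and silica rats, with the group mean and SD as lines and rat 604 as a diamond. Nr1d1 lies at 7.75 to 8.97 with smoke and silica and at 9.40 to 10.01 with air and silica, and only in Per1 do the groups overlap.

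Genes lower with smoke included 2 Krüppel-like factors that glucocorticoids are known to raise and that follow daily rhythms. Klf15, a regulator of amino acid and lipid metabolism, was at 9.10, 9.27, 9.02 and 9.35 in smoke and silica rats, against 10.23, 10.31, 9.92 and 9.98 in air and silica rats. No rat of one group came near the other. The difference was -0.93 (SE 0.16, adjusted p = 0.0732), it passed without rat 302 (0.0272), and a second probe set gave -0.89 while another, dim one gave -0.03. Smoke without particles gave -0.05 for Klf15 and smoke under sand -0.45. Klf9 was at 11.21, 11.01, 10.65 and 10.92 with smoke and silica, against 11.35, 11.72, 11.41 and 11.65 with air and silica. Its groups were separate by a small margin, and it passed only without rat 302 (-0.58, SE 0.16, adjusted p = 0.185 with 24 arrays and 0.0349 without).

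Tent5b, a poly(A) polymerase of the FAM46 family, was at 7.22, 8.27, 8.05 and 8.29 in smoke and silica rats, against 9.25, 9.16, 9.19 and 9.19 in air and silica rats. The air and silica rats were nearly alike, and rat 602 was the lowest of the smoke and silica rats. The difference was -1.24 (SE 0.24, adjusted p = 0.0732, or 0.0272 without rat 302), and its other probe set gave -0.90. Rapgef3, which encodes the cyclic AMP sensor EPAC1, was at 7.84, 8.07, 7.64 and 7.96 with smoke and silica, against 8.35, 8.60, 8.31 and 8.41 with air and silica. Each smoke and silica rat lay below each air and silica rat, by a difference of -0.54 (SE 0.11, adjusted p = 0.0823, or 0.0272 without rat 302). For Tent5b smoke without particles gave 0.12 and smoke under Iraqi sand -0.88, and for Rapgef3 these were 0.04 and -0.21.

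Further genes that passed without rat 302 on the low side, all with groups that did not overlap, were Gckr, the glucokinase regulator (-0.69), Ppp1r1b, a phosphatase inhibitor driven by cyclic AMP (-0.68), Tmem204, an endothelial membrane protein (-0.62), Adra1b, an adrenergic receptor (-0.61), Pim3, a survival kinase (-0.58), and Trim25, a ubiquitin ligase of the RIG-I pathway (-0.58). Their adjusted p with 24 arrays lay between 0.078 and 0.257. The T-cell receptor regulator Cd5 was at 6.61, 6.43, 5.86 and 7.16 with smoke and silica, against 7.43, 7.30, 7.60 and 7.26 with air and silica. Rat 605 lay just below the nearest air and silica rat, and rat 604 was the lowest. The difference was -0.88 (SE 0.25, adjusted p = 0.232, or 0.0445 without rat 302).

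Phagocyte and lysosomal genes were among those higher in smoke and silica rats. Gpnmb, a glycoprotein of lipid-laden macrophages, was at 13.38, 13.47, 13.47 and 13.51 in smoke and silica rats, against 13.09, 12.27, 12.43 and 12.19 in air and silica rats. The smoke and silica rats were nearly equal, and rat 501 was the nearest of the air and silica rats. The difference was 0.97 (SE 0.19, adjusted p = 0.078, or 0.0272 without rat 302), a 1.95-fold level. Cd68, a lysosomal membrane protein of macrophages, was at 11.29, 11.31, 11.63 and 11.70 with smoke and silica, against 11.12, 10.15, 10.74 and 10.37 with air and silica. Again the groups were separate and rat 501 was nearest, with a difference of 0.89 (SE 0.19, adjusted p = 0.0823, or 0.0432 without rat 302).

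Ctsk, a cathepsin that cuts collagen and elastin, had the largest difference of the higher genes that passed without rat 302. It was at 8.28, 8.80, 9.44 and 8.96 in smoke and silica rats, against 8.0, 7.53, 7.69 and 7.52 in air and silica rats, a difference of 1.18 (SE 0.22, adjusted p = 0.0732, or 0.0272 without rat 302). All smoke and silica rats were above all air and silica rats, and without rat 604 the difference was 0.99. Ctsd, the main aspartic protease of lysosomes, was at 13.25, 13.26, 13.32 and 13.40 with smoke and silica, against 13.04, 12.64, 12.88 and 12.73 with air and silica. Its difference was smaller, 0.49 (SE 0.10, adjusted p = 0.085, or 0.0393 without rat 302), with no overlap.

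Lgals3, a galectin that gathers on damaged lysosomes, was at 13.43, 13.54, 13.68 and 13.57 in smoke and silica rats, against 13.37, 12.95, 13.08 and 12.92 in air and silica rats. Rats 602 and 501 lay close together at the boundary, and the difference was 0.47 (SE 0.10, adjusted p = 0.0823, or 0.0384 without rat 302). Pld3, a lysosomal exonuclease, was at 9.74, 9.85, 10.20 and 9.87 with smoke and silica, against 9.55, 9.09, 9.16 and 9.17 with air and silica. The groups were separate, by 0.67 (SE 0.13, adjusted p = 0.0732, or 0.0272 without rat 302), and a second, dim probe set of Pld3 gave -0.14. Smaller differences that passed without rat 302 were those of Hexa, a hexosaminidase (0.34), Tpp1, a tripeptidyl peptidase (0.23), and Lamp2, a lysosomal membrane protein chosen here after its values were seen (0.32).

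Arg1, the arginase of alternatively activated macrophages, differed by 1.01 (SE 0.21, adjusted p = 0.0823, or 0.0384 without rat 302) although its groups overlapped. It was at 9.68, 9.79, 10.05 and 9.29 with smoke and silica, against 9.32, 8.34, 8.85 and 8.28 with air and silica, rat 501 lying above rat 605. Other genes that passed without rat 302 were Pkib, an inhibitor of protein kinase A (0.82), Qsox1, a sulfhydryl oxidase (0.80), Cd33, a sialic acid receptor of myeloid cells (0.68), Enpp2, the enzyme that makes lysophosphatidic acid (0.68), Ttyh2, a membrane protein (0.67), Myo5a, a myosin that carries organelles (0.63), and Vim, the filament protein vimentin (0.28). In each of these 7 genes the groups did not overlap. Some further macrophage genes did not pass in either fit. Mreg, which acts in the traffic of lysosome-related organelles, was at 7.74, 7.84, 8.15 and 7.62 with smoke and silica, against 6.84, 6.23, 6.74 and 6.68 with air and silica, a difference of 1.21 (SE 0.30, adjusted p = 0.153). Its groups did not overlap. The SD of Mreg was 0.23 and 0.27 in these groups, against 0.69 with sham air alone and 0.72 with air and Iraqi sand. Trem2, a lipid-sensing receptor, differed by 1.11 (adjusted p = 0.365), and by 0.71 without rat 604. Mmp12, the macrophage elastase, differed by 1.40 (SE 0.48, adjusted p = 0.365), its value in rat 605 (7.40) being below every air and silica rat. Spp1, osteopontin, differed by 2.37 (SE 0.86, adjusted p = 0.411), and by 1.63 without rat 604, which was at 11.86.

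By list, 20 of 21 alveolar macrophage markers were higher in smoke and silica rats, with a median difference of 0.47 (0.37 without rat 604) against -0.01 over all genes. In 8 of them (38.1%) the groups did not overlap, against 2.8% of all genes. The lists were chosen with earlier results of these data known, so the shares given here and for later lists are descriptions and not tests. The mean level of the list was 10.35, 10.38, 10.83 and 10.49 in smoke and silica rats, against 10.16, 9.78, 10.00 and 9.84 in air and silica rats. Of 36 lysosomal genes, 34 were higher, with a median of 0.17 (0.14 without rat 604) and 14 (38.9%) without overlap, and Ctsd and Ctsk belong to both lists. Macrophage lipid genes were higher in 14 of 17, with a median of 0.29, led in their t by Gpnmb, Plin2, which coats lipid droplets (0.38, adjusted p = 0.265), Lipa, the lysosomal lipase (0.34, 0.272), and Trem2. No macrophage or lysosomal gene passed with 24 arrays or without rat 604. Without rat 302, 5 of each list passed on the high side, where 0.26% of all genes did. Rat 501 was the highest air and silica rat in 17 of the 21 macrophage markers and in 22 of the 36 lysosomal genes.

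**Figure D2:**
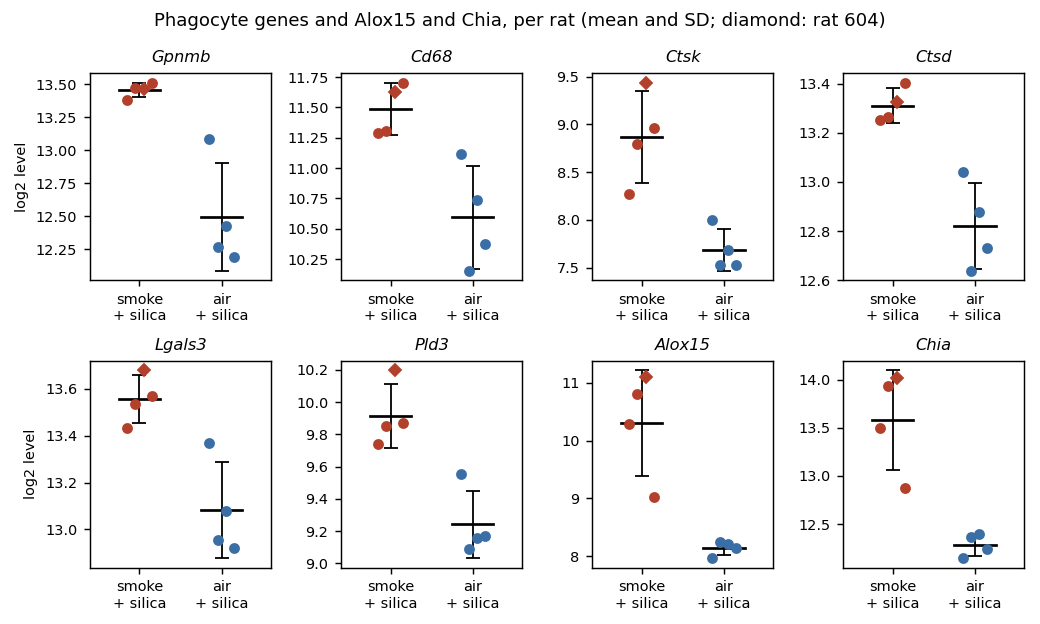
Log2 level of 6 phagocyte or lysosomal genes, Alox15 and Chia in each of 4 smoke and silica rats and 4 air and silica rats, with the group mean and SD as lines and rat 604 as a diamond. In all 8 genes every smoke and silica rat lies above every air and silica rat, and in Gpnmb, Cd68, Ctsk, Ctsd, Lgals3 and Pld3 the air and silica rat nearest to them is rat 501.

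Of genes whose groups did not overlap, the 6 with the largest differences on the high side passed neither with 24 arrays nor without rat 302. Alox15, a lipoxygenase of macrophages and airway epithelium, was at 10.28, 10.81, 11.10 and 9.03 in smoke and silica rats, against 7.97, 8.24, 8.22 and 8.14 in air and silica rats. The air and silica rats were tight and the smoke and silica rats wide, with rat 605 the lowest. The difference was 2.16 (SE 0.49), a 4.48-fold level, with an adjusted p of 0.11, or 0.0575 without rat 302. Chia, the acidic chitinase of the airway, was at 13.50, 13.94, 14.02 and 12.88 with smoke and silica, against 12.14, 12.37, 12.39 and 12.24 with air and silica (1.30, SE 0.35, adjusted p = 0.2). S100a9, a calcium-binding alarmin of neutrophils, was at 11.34, 11.90, 12.39 and 10.39 with smoke and silica, against 9.83, 10.30, 10.36 and 10.00 with air and silica (1.38, SE 0.41, adjusted p = 0.251). Rat 605 was the lowest and rat 604 the highest smoke and silica rat in all 3 genes. The other 3 were Ckmt1, a mitochondrial creatine kinase (1.62, adjusted p = 0.153), Nrn1, a neuritin (1.35, 0.11), and Chodl, a C-type lectin-like protein (1.28, 0.319).

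On the low side, the largest differences without overlap that passed in neither fit were those of Ctrb1, a digestive protease (-1.29, adjusted p = 0.565), Rprml, a relative of reprimo (-0.97, 0.257), Slc29a1, a nucleoside transporter (-0.88, 0.153), Ccbe1, a factor of lymphatic growth (-0.77, 0.241), Spon2, a matrix protein (-0.76, 0.433), Igfbp6, a binder of insulin-like growth factor (-0.74, 0.255), Syndig1, a synaptic membrane protein (-0.71, 0.255), and Cyp4b1, a cytochrome P450 of club cells (-0.71, 0.344). Slc29a1 and Cyp4b1 were nearer to 0 without rat 604, at -0.54 and -0.44.

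Neutrophil markers were higher in 9 of 11, with a median difference of 0.37 (0.47 without rat 604). The mean level of the list was 8.17, 8.41, 8.47 and 8.07 in smoke and silica rats, against 7.42, 7.88, 7.90 and 7.67 in air and silica rats, without overlap. Of its single genes only S100a9 had groups that did not overlap (9.09%, against 2.8% of all genes). S100a8, the partner of S100a9, differed by 1.05 (adjusted p = 0.484), Cxcr1, a chemokine receptor, by 0.70 (0.316) and Lcn2, lipocalin 2, by 1.54 (0.83). Lcn2 was at 13.55, 14.15, 14.23 and 12.66 in smoke and silica rats and at 9.17, 13.22, 13.49 and 12.54 in air and silica rats, where rat 501 was far below its mates. Of 43 cytokines and chemokines, 26 were higher and 17 lower, with a median of 0.05. The 1 member without overlap on the high side (2.33%, against 2.8% of all genes) was Ccl11, eotaxin (0.71, adjusted p = 0.478), and Cxcl14, a chemokine of epithelium, the lowest (-1.05, 0.42), or -0.54 without rat 604. Il18, released by the inflammasome, differed by 0.80 (0.421) and Il1b by 0.50 (0.804), while Cxcl2, a neutrophil attractant, differed by 0.27 (0.874). Ccl2, a monocyte attractant, differed by 0.39 (0.94), and its sign turned without rat 604, to -0.20. Complement and acute phase genes were higher in 14 of 18 (median 0.21), with none separate between groups. Saa3, serum amyloid A, differed by 1.75 (0.419), or 0.96 without rat 604. Proteases and their inhibitors were higher in 12 of 18 (median 0.06).

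Cxcl1, which draws neutrophils, did not separate the silica groups. It was at 10.36, 11.09, 10.75 and 10.30 in smoke and silica rats and at 10.79, 10.04, 9.98 and 9.99 in air and silica rats (0.43, adjusted p = 0.739). Without particles it averaged 10.58 ± 0.17 with smoke and 8.46 ± 0.19 with sham air (SD, n = 4 each), a difference of 2.11 (adjusted p = 0.000263). The difference between these smoke effects was -1.69 (SE 0.37), which did not pass over all genes (adjusted p = 0.9997).

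Antioxidant genes under NRF2, the regulator of the response to electrophiles, were higher in 24 of 28, with a median difference of 0.28, or 0.15 without rat 604. Rat 604 was the highest smoke and silica rat in 23 of the 28. The groups did not overlap in 4 higher genes (14.3%, against 2.8% of all genes) and 1 lower gene (3.57%, against 4.35%), and none passed in either fit. Gclm, the modifier subunit that glutathione synthesis needs, was at 9.08, 9.29, 9.77 and 8.76 with smoke and silica, against 8.63, 8.45, 8.66 and 8.65 with air and silica. The margin between the groups was narrow, and the difference was 0.63 (SE 0.19, adjusted p = 0.276), or 0.44 without rat 604. Gclc, the catalytic subunit, differed by 0.40 (adjusted p = 0.319), or 0.28 without rat 604. Gsta1, a glutathione transferase, differed by 0.31 (0.302), Taldo1, of the pentose phosphate path, by 0.29 (0.383), and Hmox1, heme oxygenase, by 0.14 (0.942), or -0.02 without rat 604. Nqo1, a quinone reductase, was at 11.55, 11.26, 12.72 and 11.20 with smoke and silica and at 11.27, 11.01, 11.25 and 11.19 with air and silica. Most of its difference of 0.50 (adjusted p = 0.639) lay in rat 604, and without that rat it was 0.15. The aryl hydrocarbon receptor genes, which answer the polycyclic hydrocarbons of smoke, were higher in 7 of 9 (median 0.19). Cyp1b1 differed by 0.48 (0.655), or 0.28 without rat 604, Ahrr, the receptor's repressor, by 0.20 (0.54), Aldh3a1, an aldehyde dehydrogenase, by 0.83 (0.489), or 0.36 without rat 604, and Cyp1a1 by -0.37 (0.857).

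Secretory and airway epithelial genes varied widely among smoke and silica rats. Muc5b, a gel-forming mucin, was at 10.70, 10.55, 12.04 and 8.63 in smoke and silica rats and at 8.43, 8.09, 8.77 and 7.69 in air and silica rats. Rat 605 lay among the air and silica rats, and the difference of 2.23 (SE 0.87) had an adjusted p of 0.47. Agr2, needed for mucin folding, differed by 1.67 (0.455) and Aqp3, a glycerol channel of basal cells, by 1.87 (0.389), or 1.10 and 1.18 without rat 604, while Scgb1a1, the club cell secretoglobin, differed by -0.10 (0.759). Club and secretory markers were higher in 11 of 18 (median 0.06), and ciliated markers in 8 of 10 (median 0.20).

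Proliferation and basal cell genes were high in 1 rat. Of 40 cell cycle genes 37 were higher in smoke and silica rats, with a median of 0.38, but rat 604 was the highest smoke and silica rat in 38 of the 40 and the median was 0.08 without it. The mean level of the list was 7.12, 7.35, 8.26 and 7.16 with smoke and silica, and 7.20, 6.97, 7.21 and 7.01 with air and silica. Mki67, a marker of dividing cells, differed by 0.91 (adjusted p = 0.545) with rat 604 and by 0.34 without it, and Ccna2, cyclin A, by 0.87 (0.425) and 0.40. Shcbp1, Hells and Dsc2, which act in cytokinesis, chromatin remodelling and desmosomes, had separated groups. Their differences were 1.10, 1.02 and 1.07 with rat 604, and 0.74, 0.70 and 0.69 without it. Another, dim probe set of Shcbp1 gave 0.13. In the cell cycle list 1 of 40 genes was separate on the high side (2.5%, against 2.8% of all genes), and in the basal and squamous list 0 of 12. Basal and squamous markers were higher in 10 of 12, with a median of 0.43, and rat 604 was the highest smoke and silica rat in 10 of the 12, with a median of -0.00 without it. Their mean level was 5.90, 5.85, 7.66 and 5.86 with smoke and silica and 5.91, 5.72, 5.77 and 5.79 with air and silica. Krt5, the basal keratin, was at 8.69 in rat 604 and at 5.45 to 5.66 in its mates, against 5.46 to 5.59 in air and silica rats.

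**Figure D3:**
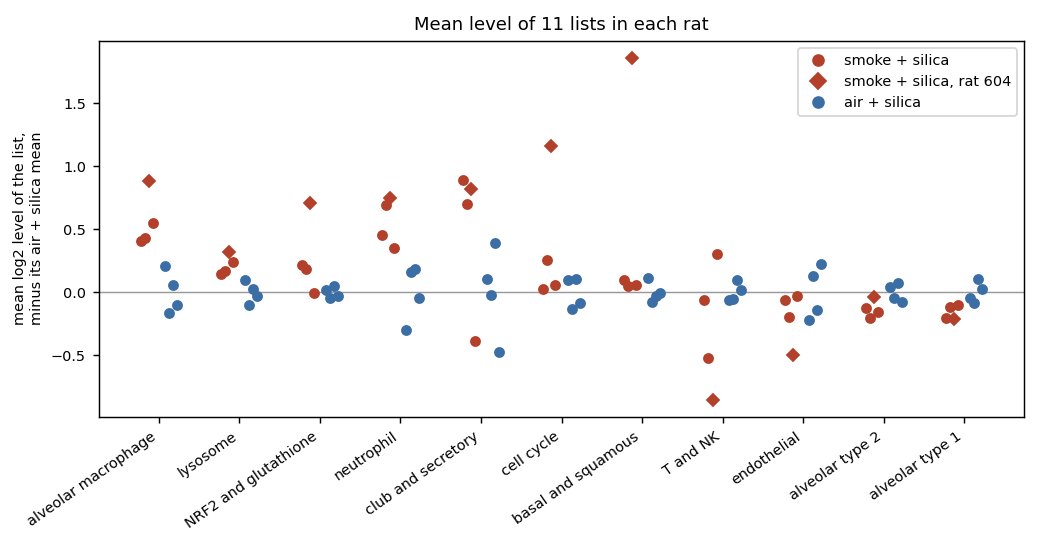
Mean log2 level of 11 gene lists in each smoke and silica rat and air and silica rat, minus the mean of the 4 air and silica rats for that list, with rat 604 as a diamond. The macrophage, lysosome and neutrophil lists place all 4 smoke and silica rats above the air and silica rats, and the type 1 list places them below. In the cell cycle and basal lists rat 604 alone stands far above.

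Lymphocyte and endothelial genes were on the low side, in part with rat 604. T and NK cell markers were lower in 23 of 25, with a median of -0.24, or -0.08 without rat 604, which was the lowest smoke and silica rat in 20. Cd3d, Cd3e and Cd3g, chains of the T-cell receptor complex, differed by -0.61, -0.70 and -0.64 (adjusted p = 0.425, 0.425 and 0.43), with overlap, and by -0.39, -0.47 and -0.42 without rat 604. The mean level of the list was 7.64, 7.19, 6.86 and 8.01 with smoke and silica and 7.65, 7.65, 7.81 and 7.72 with air and silica, so that rat 605 was the highest of the 8 rats. B and plasma cell markers were lower in 11 of 12 (median -0.21, or -0.06 without rat 604), and Jchain, which joins antibody units, differed by -0.91 (0.473), or -0.46 without rat 604. Mast cell and eosinophil markers were lower in 12 of 13 (median -0.12, or -0.02 without rat 604). Endothelial markers were lower in 15 of 21, with a median of -0.15, or -0.06 without rat 604. Cldn5, the tight junction claudin of endothelium, was at 12.11, 11.98, 11.37 and 12.08 with smoke and silica, against 12.47, 12.50, 12.34 and 12.64 with air and silica. Its groups were separate (-0.60, SE 0.15, adjusted p = 0.158), as were those of Klf2, a factor induced by blood flow (-0.58, 0.276). These were the list's 2 members separate on the low side (9.52%, against 4.35% of all genes). On the high side 1 member was separate (4.76%, against 2.8%). Ramp2, a receptor partner of adrenomedullin, differed by -0.51 (0.328) and Sox18, an endothelial factor, by -0.56 (0.379), both with overlap, and by -0.26 each without rat 604.

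Alveolar epithelial markers differed little and were mostly lower. All 13 type 1 markers were lower in smoke and silica rats, with a median of -0.12 and differences from -0.35 to -0.05, and 15 of 17 type 2 markers were lower, with a median of -0.08. The mean level of the type 1 list was 11.93 to 12.03 with smoke and silica and 12.05 to 12.24 with air and silica. Cldn18 belongs to both lists. Gprc5a, a type 1 cell receptor, differed by -0.32 (SE 0.09, adjusted p = 0.233) and Lpcat1, which makes surfactant phospholipid, by -0.40 (0.213), neither past the test. Sftpc differed by -0.06 (0.809). As RMA forces the arrays to 1 distribution, these small differences are relative to the other genes of an array.

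Erythroid genes were higher in 6 of 7 (median 0.39, or 0.40 without rat 604). Alas2, which starts heme synthesis in red cell precursors, was at 10.48, 11.05, 11.04 and 10.43 in smoke and silica rats, against 9.75, 10.11, 10.20 and 9.84 in air and silica rats. Its groups were separate (0.78, SE 0.19, adjusted p = 0.153), as were those of Slc4a1, the band 3 anion exchanger (0.60, 0.232). In all, 3 of the 7 erythroid genes were separate on the high side (42.9%, against 2.8% of all genes). Alas2 averaged 10.75 with smoke and silica and 9.97 with air and silica, against 10.53 with smoke alone and 10.56 with sham air alone. Dcn, the matrix proteoglycan decorin, was at 11.47, 10.97, 11.52 and 10.83 with smoke and silica, against 10.12, 10.32, 10.27 and 10.15 with air and silica (0.98, SE 0.27, adjusted p = 0.212), without overlap. The collagen gene Col1a1 differed by -0.09 (0.987), or -0.44 without rat 604. Matrix genes were lower in 14 of 20 (median -0.05, or -0.18 without rat 604), and smooth muscle and fibroblast markers were higher in 9 of 18.

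Interferon-stimulated genes were lower in 17 of 24 and higher in 7 (median -0.06). Rsad2, the antiviral viperin, was at 9.95, 9.88, 10.55 and 9.69 with smoke and silica, against 8.97, 8.89, 9.44 and 9.06 with air and silica. Rsad2 was separate between groups (0.93, SE 0.22, adjusted p = 0.136) and the list's 1 such member (4.17%, against 2.8% of all genes on the high side). Immediate early genes were lower in 16 of 22 (median -0.16), with Zfp36, a destabilizer of cytokine messages, separate at -0.49 (0.26). It was 1 of 2 members separate on the low side (9.09%, against 4.35% of all genes), and 1 was separate on the high side (4.55%, against 2.8%). Medians of the lists of glucocorticoid and metallothionein response, unfolded protein response and heat shock, cholesterol and fatty acid synthesis, and class II antigen presentation were 0.00, 0.03, 0.00 and -0.09. Cardiac and striated muscle genes, which can mark heart or vein muscle in or on a lobe, were lower in 17 of 22 (median -0.16). The atrial light chain Myl7 was at 7.47 in rat 602 and 4.97 to 5.27 in its mates, against 4.91 to 8.58 in air and silica rats. Mesothelial and adipocyte genes were lower in 6 of 10 (median -0.08). The part of such muscle, mesothelial or fat tissue in the differences was not tested.

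**Figure D4:**
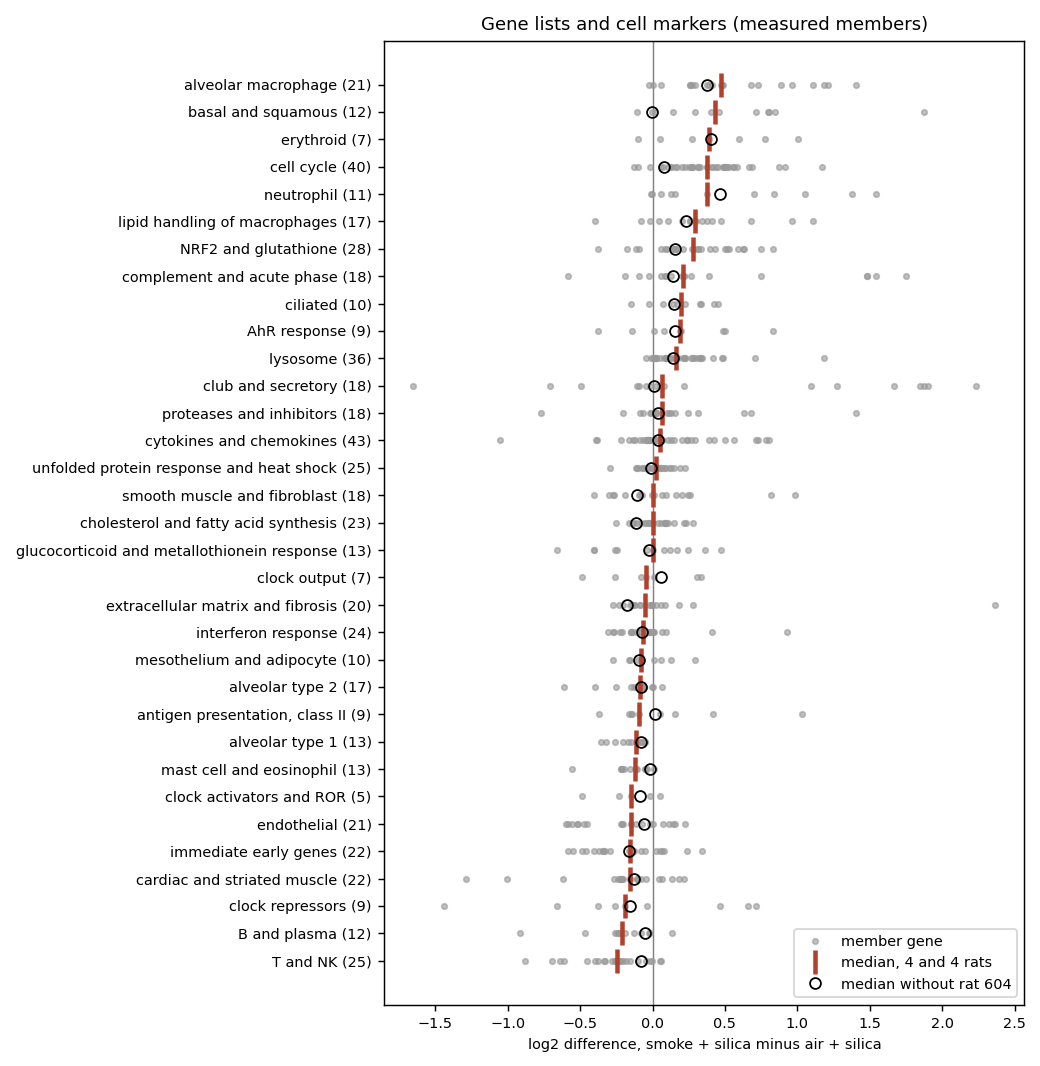
Log2 difference, smoke and silica minus air and silica, of each measured member (grey points) of 33 gene lists, with the median of each list over 4 and 4 rats (bar) and without rat 604 (ring); the number of members is in brackets. Without rat 604 the median of the macrophage list is 0.37, and those of the cell cycle and basal lists are 0.08 and -0.00.

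Genes chosen by their smoke difference in rats that had no silica were then read in the silica groups, which share no rat with that difference. Smoke against air, averaged over the 16 rats with no particles or with Iraqi sand, gave 478 genes past the test in the same 24-array model, 202 higher (1.42%) and 276 lower (1.94%). The spread in that test came from all 24 arrays, the silica rats included. The choice thus favours genes with little spread within the silica groups, and the shares without overlap below are not independent of it. In the silica groups 185 of the 202 (91.6%) had a difference above 0, against 46.7% of all genes, and in 69 (34.2%) every smoke and silica rat was above every air and silica rat, against 2.8% of all genes. Of the 276 lower genes, 252 (91.3%) had a difference below 0, against 53.3% of all genes, and 75 (27.2%) were separate on the low side, against 4.35%. Only 2 of the higher and 0 of the lower genes were separate in the opposite direction. The median of the 202 was 0.32 in the silica groups (0.29 without rat 604) and 0.48 in the rats that chose them, a size the choice itself favours. For the 276 the medians were -0.19 (-0.17 without rat 604) and -0.34. Smoke without particles alone chose 108 higher genes (0.76%) and 19 lower genes (0.134%). Of these, 105 and 18 had the same sign under silica, 49 (45.4%) and 8 (42.1%) without overlap, with medians of 0.38 under silica and 0.70 where chosen for the higher genes. The 61 genes that passed under silica without rat 302 shared 37 genes with the 693 (4.87% of all genes) that passed in the other rats without rat 302, 60.7% of the silica list and 5.34% of the other, and all 37 had the same sign. Both lists used the same spread per gene from 1 fit, which favours genes of little spread in each. The number shared is thus not independent of that spread.

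Differences were smaller in size under silica in 157 of the 202 higher and 248 of the 276 lower genes, a direction the choice itself favours. Genes of the same sign included Aqp3, at 1.87 in the silica groups (1.18 without rat 604) and 1.99 in the rats without silica, Agr2 at 1.67 (1.10 without rat 604) and 1.66, S100a9 at 1.38 and 1.33, Mreg at 1.21 and 1.22, Gpnmb at 0.97 and 1.19 and Spon2 at -0.76 and -1.09. In Aqp3 and Agr2 the silica groups overlapped. Cxcl1, at 0.43 and 1.71, lay farthest from equal values among the higher genes. Nr1d1, at -1.44 and -0.96, was the member of the lower list with the most negative value under silica.

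**Figure D5:**
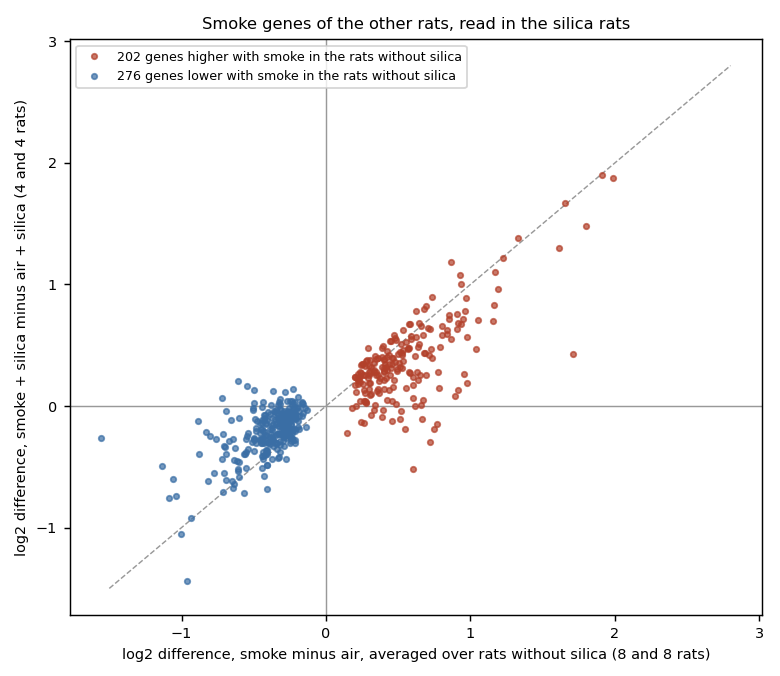
Log2 difference of 478 smoke genes in the silica groups (vertical axis, 4 and 4 rats) against the difference that chose them in rats without silica (horizontal axis, 8 and 8 rats), for 202 higher and 276 lower genes; the dashed line marks equal values. Most points share a sign, with 185 of 202 and 252 of 276 on the same side of 0.

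Whether smoke acted differently with silica than without was tested as a difference of smoke effects. Under silica minus without particles, 0 of 14217 genes passed by limma, with rat 302 or without it, and 318 (2.24%) had an unadjusted p under 0.05. Under silica minus under Iraqi sand, 1 gene passed (0.00703%), and 1005 (7.07%) had an unadjusted p under 0.05. This was Ccnd2, cyclin D2, which moves cells out of rest. It was at 10.56, 10.47, 10.32 and 10.26 in smoke and silica rats, against 10.65 in rat 502 and at most 11.01 in the other air and silica rats, a difference of -0.51 (SE 0.19, adjusted p = 0.425). With Iraqi sand it averaged 10.14 ± 0.43 in smoke rats and 8.86 ± 0.36 in air rats (SD, n = 4 each), a difference of 1.28 (adjusted p = 0.00254). The smoke effects thus had opposite signs, and their difference was -1.80 (SE 0.27, adjusted p = 0.0176). The air and Iraqi sand rats were the lowest of the 6 groups for Ccnd2, and sham air alone averaged 9.68 ± 0.31. Without rat 302 the count of such genes was 4 (0.0281%), and it was 0 without rat 604, 605, 501, 503 or 504.

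Klf15, Tent5b and Rapgef3, low with smoke under silica, had smoke effects near 0 without particles, and the differences between these effects were -0.88 (SE 0.23), -1.36 (SE 0.33) and -0.58 (SE 0.16). None of these differences passed over all genes. Under Iraqi sand the smoke effects had the same sign as under silica, at -0.45, -0.88 and -0.21, and silica minus sand was -0.48, -0.36 and -0.33, also not past the test. For the macrophage genes Lgals3 and Ctsd the smoke effect under silica minus that without particles was -0.45 (SE 0.14) and -0.42 (SE 0.15), and silica minus sand was 0.26 and 0.13. None of these passed. Gpnmb averaged 13.46 ± 0.05 with smoke and silica and 12.49 ± 0.41 with air and silica, and 13.32 ± 0.27 with smoke alone and 11.83 ± 0.23 with sham air (SD, n = 4 each).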

How the data were processed

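Lung RNA of 24 rats was hybridised to 1 array each. RMA made the deposited log2 values, per the submitters' processing notes, and its version is not given in the sources used here. The values run from 2.90 to 15.04. Scanner files were not used here. Of 31042 probe sets other than controls, 20826 had 1 symbol in the platform annotation, and the brightest of each gene over 24 arrays gave 14217 genes. The 10216 others held 0 past the test (612 at an unadjusted p under 0.05).

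Groups came from the sample titles. A model of 6 group means was fitted to 24 arrays with limma 3.58.1 in R 4.3.3 (18 residual degrees of freedom), with two-sided tests and Benjamini-Hochberg adjustment over all genes, and was tested on simulated data. The number of arrays limits the precision, and p-values refer to the spread between rats. Named genes were those past the test, the 12 highest and 12 lowest of those that passed without rat 302 and of those without overlap, up to 4 members of each of 33 lists (596 measured entries) with the largest t, and a set of clock, smoke and inflammation genes. Lamp2 and Ccnd2 lie outside this rule and were chosen after their values were seen. A part of the rule on genes patterned like Nr1d1 was not used, because the 8 rats form separate groups. Members and lists were chosen with earlier results of these data known. Of 112 named genes, 24 had other probe sets, 32 in all, and 29 of these had the same sign.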

Additional observations from a re-analysis of the deposited data

Results flagged for a closer look

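In 14 of 224 groups of 4 examined for the named genes, 1 rat lay far from its 3 mates relative to the range of the group, where chance gives about 1 in 20. In 5 of the 14 it was rat 604, given smoke and silica: this rat was low for Per3 (9.61), Sox18 (9.52) and Cyp4b1 (10.9) and high for Dsc2 (8.53) and Krt5 (8.69). Other smoke and silica rats were 605, low for Enpp2 (11.7), 603, low for Ttyh2 (9.08) and Igfbp6 (9.14), and 602, high for the atrial muscle gene Myl7 (7.47). In air and silica rats, 501 was high for Pld3 (9.55) and Cxcl1 (10.8) and low for Chodl (6.91), and 502 was low for Gclm (8.45) and Ccnd2 (10.65). Between particle conditions, the smoke effect on Ccnd2 under silica minus that under Iraqi sand was -1.80 (limma, adjusted p = 0.0176).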

How the results depend on the processing

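Of 2318 values of named genes under 21 alternatives, 2187 kept their direction and their side of the threshold. Another 105 came to pass it, 6 no longer passed it and 20 turned sign. Part of this was fixed in advance, so the counts do not measure how stable direction is. The difference cannot change without rat 302, with the 8 silica arrays alone, or with limma's trend and robust shrinkage. Nor can it change with the filter at the median level or the 1.5-fold threshold (Nr1d1 was at -1.44 in each). Nr1d1 alone passed under silica in the main fit, so other genes that kept their side had again not passed. The sign turned without rat 604 for Cry2 (0.0207), Clock (-0.0250), Hmox1 (-0.0183) and Ccl2 (-0.196), with the same values when rat 302, or rats 302 and 104, were left out too. With each rat left out, Cry2 ran from -0.0997 to 0.0496, Clock from -0.0383 to 0.137, Hmox1 from -0.0183 to 0.247, Ccl2 from -0.196 to 0.727 and Col1a1 from -0.443 to 0.176. Hmox1 also turned with array quality weights (-0.0126), and Col1a1 on 19 arrays with the RNA integrity number as covariate (0.0666) or without it (0.0938). Nr1d1 ran from -1.64 to -1.17, with adjusted p from 0.00167 to 0.29, and passed in 15 of the 21. It did not pass without rat 604 (0.1), 502 (0.151) or 503 (0.129), with the 8 silica arrays alone (0.188), or on 19 arrays with the covariate (0.29) or without it (0.173).

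Counts depended on the settings, and the causes were not tested. Smoke under silica, at 1 gene, gave 61 without rat 302, 3 without rats 302 and 604 and also without rats 302, 104 and 604, 0 with the 8 arrays alone, 250 with quality weights, 17 among genes at or above the median level, 3 with probe sets averaged per gene, 0 on the 19 arrays with the covariate and 0 without it, and 0 to 16 with each rat left out. Silica minus no particles, at 0, gave 1 without rats 302, 104 and 604, and 0 with each rat left out. Silica minus sand, at 1, gave 4 without rat 302, 2 without rats 302 and 604, 5 without rats 302, 104 and 604, 0 with the arrays of its groups alone, 12 with weights, 2 at or above the median level, 4 with probe sets averaged, 2 with quantile normalization over again, 0 on the 19 arrays with or without the covariate, and 0 to 1 with each rat left out. Smoke in rats without silica, at 478, gave 312 with those arrays alone, 1775 with weights, 114 for changes past 1.5-fold, 98 on the 19 arrays with the covariate and 99 without it. No paired analysis was possible because the rat numbers of the groups differ.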
